A study of Homo sapiens with 9 samples.

Results

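The mRNA decay regulators of the ZFP36 and BTG/TOB families were followed in Jurkat cells, a leukaemic line of human T lymphocytes, after exposure to nanosecond electrical pulses (nsEP), after heat shock or after sham exposure. The 8 genes were ZFP36, ZFP36L1, ZFP36L2, BTG1, BTG2, BTG3, TOB1 and TOB2, and a probe set belonged to the families when the array's annotation gave it 1 of these symbols and no other, whatever its values. This rule found 21 of the 54613 probe sets that were not controls, and they stood for 7 of 19775 genes. No probe set was listed under BTG2, alone or with other genes, in the annotation used, so BTG2 was not analysed here. The 9 arrays fell into 3 groups of 3, called biological replicates in the labels: cells given 100 pulses of 10 ns at 150 kV/cm, cells heat shocked in the same kind of cuvette in a warm water bath, and sham cells placed on the pulser with no power applied. All samples were of a single clone of 1 cell line, were in growth medium with serum during exposure, and gave total RNA 4 h after it.

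ZFP36 proteins carry paired zinc fingers that bind AU-rich sequences near the end of short-lived mRNAs, many of which encode cytokines and immediate early transcription factors. They then recruit the CCR4-NOT complex, which shortens the poly(A) tail, and the mRNA is decapped and degraded. BTG and TOB proteins have no such zinc fingers. They bind the CAF1 deadenylases of CCR4-NOT (CNOT7 and CNOT8) through a shared domain, and TOB1 and TOB2 also bind poly(A) binding protein. In mouse, ZFP36L1 and ZFP36L2 restrain thymocyte growth and the loss of both leads to T cell leukaemia, and BTG1 with BTG2 keeps T cells quiescent. Several of these genes are themselves induced within minutes to hours of a stimulus.

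To show what lies upstream of the members that moved, the promoter letters of 4 genes are given, those with a probe set past the test in a comparison below. They are the 250 bases before the start of transcription in RefSeq (GRCh38.p14), written in the direction of the gene, and capitals mark the core of the cAMP response element, CGTCA on either strand (its other strand reads TGACG). The windows of ZFP36L1 (chr14:68793417-68793666, minus strand), BTG1 (chr12:92145847-92146096, minus strand), BTG3 (chr21:17612902-17613151, minus strand) and TOB2 (chr22:41446802-41447051, minus strand) read as follows.
ZFP36L1: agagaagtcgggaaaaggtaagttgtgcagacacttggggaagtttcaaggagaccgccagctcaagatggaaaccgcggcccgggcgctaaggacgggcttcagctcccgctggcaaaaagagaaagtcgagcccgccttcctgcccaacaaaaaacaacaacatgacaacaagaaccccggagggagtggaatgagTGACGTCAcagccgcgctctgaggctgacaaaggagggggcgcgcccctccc
BTG1: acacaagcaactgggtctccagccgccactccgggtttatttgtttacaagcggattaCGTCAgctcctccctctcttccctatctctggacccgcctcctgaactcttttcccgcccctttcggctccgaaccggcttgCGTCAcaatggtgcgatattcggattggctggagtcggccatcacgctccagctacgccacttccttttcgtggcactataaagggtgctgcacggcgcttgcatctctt
BTG3: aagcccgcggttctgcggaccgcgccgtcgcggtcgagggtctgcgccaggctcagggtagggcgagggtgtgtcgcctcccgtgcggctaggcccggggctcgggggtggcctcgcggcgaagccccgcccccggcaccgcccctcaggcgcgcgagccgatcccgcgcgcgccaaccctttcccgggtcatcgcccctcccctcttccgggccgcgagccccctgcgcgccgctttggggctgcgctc
TOB2: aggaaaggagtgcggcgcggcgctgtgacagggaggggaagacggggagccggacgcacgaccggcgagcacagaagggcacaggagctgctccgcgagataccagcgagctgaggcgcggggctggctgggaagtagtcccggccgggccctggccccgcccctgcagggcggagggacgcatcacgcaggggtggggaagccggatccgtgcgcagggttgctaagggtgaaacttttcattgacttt

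The window printed for ZFP36L1 is 1 of 2 that RefSeq gave for the gene, and the other (chr14:68796244-68796493, minus strand) held 1 core at 147 bases and no full element. The printed ZFP36L1 window held the full palindrome TGACGTCA, with its cores on the 2 strands starting 52 and 49 bases before the start, while BTG1 held separate cores at 192 and 110 bases and BTG3 and TOB2 held none. Of the 9 windows that RefSeq gave for 7 of the 8 genes (ZFP36L1 and TOB1 have more than 1), 5 held a core, against 21.2% of 35116 windows of all genes. These were BTG1, BTG2, TOB1 and both of ZFP36L1. The full TGACGTCA stood in 1 of the 9 windows, against 1.65% of all windows. The GC box GGGCGG stood in 6 of 9 (42.6% of all) and CCAAT in 4 of 9 (32% of all), each searched on both strands. Neither the AP-1 site (TGACTCA or TGAGTCA, 4.2% of all windows), nor the heat shock element (GAANNTTCNNGAA or TTCNNGAANNTTC, 0.441%), nor the CArG box (1.16%) had a match in the 9 windows. A match describes these letters only.

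The signals are MAS5 values on the log2 scale, so that a difference of 1 is a doubling, and each gene was read by 1 to 4 probe sets whose levels cannot be set against each other. Of the 21 probe sets, 15 lay at or above the median signal of all probe sets and 6 below it. Precision fell with signal, and the median SD between arrays of a group was 1.09 for probe sets of the dimmest quartile and 0.24 for those of the brightest. Differences were tested with limma over all 54613 probe sets, with Benjamini-Hochberg adjustment and a call at an adjusted p under 0.05. The array of nsEP replicate 3 stood apart, at -172.6 on the second principal component (14.2% of the variance) against -30.6 to 62.6 for the remaining 8, and results that turn on it are given with and without it. The 3′ signal of GAPDH minus its 5′ signal was 0.56 on that array and -0.22 to 0.26 on the remaining arrays on the log2 scale, while for ACTB the same difference was 1.24 on that array, 1.26 on sham replicate 1 and 0.31 to 0.79 on the others. Median log2 signals were 6.25 to 6.43 in nsEP, 6.65 to 6.72 in heat shocked and 6.32 to 6.42 in sham samples, and the median probe set was 0.18 higher after heat shock than in sham. The cells were checked against their label as a T cell line: 12 of 12 measured T cell genes lay in the brightest quartile, while 7 of 9 myeloid, 6 of 9 fibroblast or epithelial and 2 of 7 B cell genes lay below the median, and CD79A of the B cell list lay in the brightest quartile. Summed signals of the myeloid genes were 387 to 585 in nsEP, 709 to 873 in heat shocked and 382 to 484 in sham samples, and those of the fibroblast and epithelial genes were 503 to 686, 2159 to 5077 and 596 to 726 in the same order. Those of B cell genes were 1227 to 1746, 1261 to 1753 and 1015 to 1328. In heat shock against sham CD14 (log2 ratio 4.78) and COL1A1 (3.89) were called higher, and 3 of the 12 T cell genes were called lower, CD2 (-1.79), CD28 (-1.01) and TRAT1 (-2.16). None of these genes was at exactly 0, and the part of these differences in the results was not tested.

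**Figure D1:**
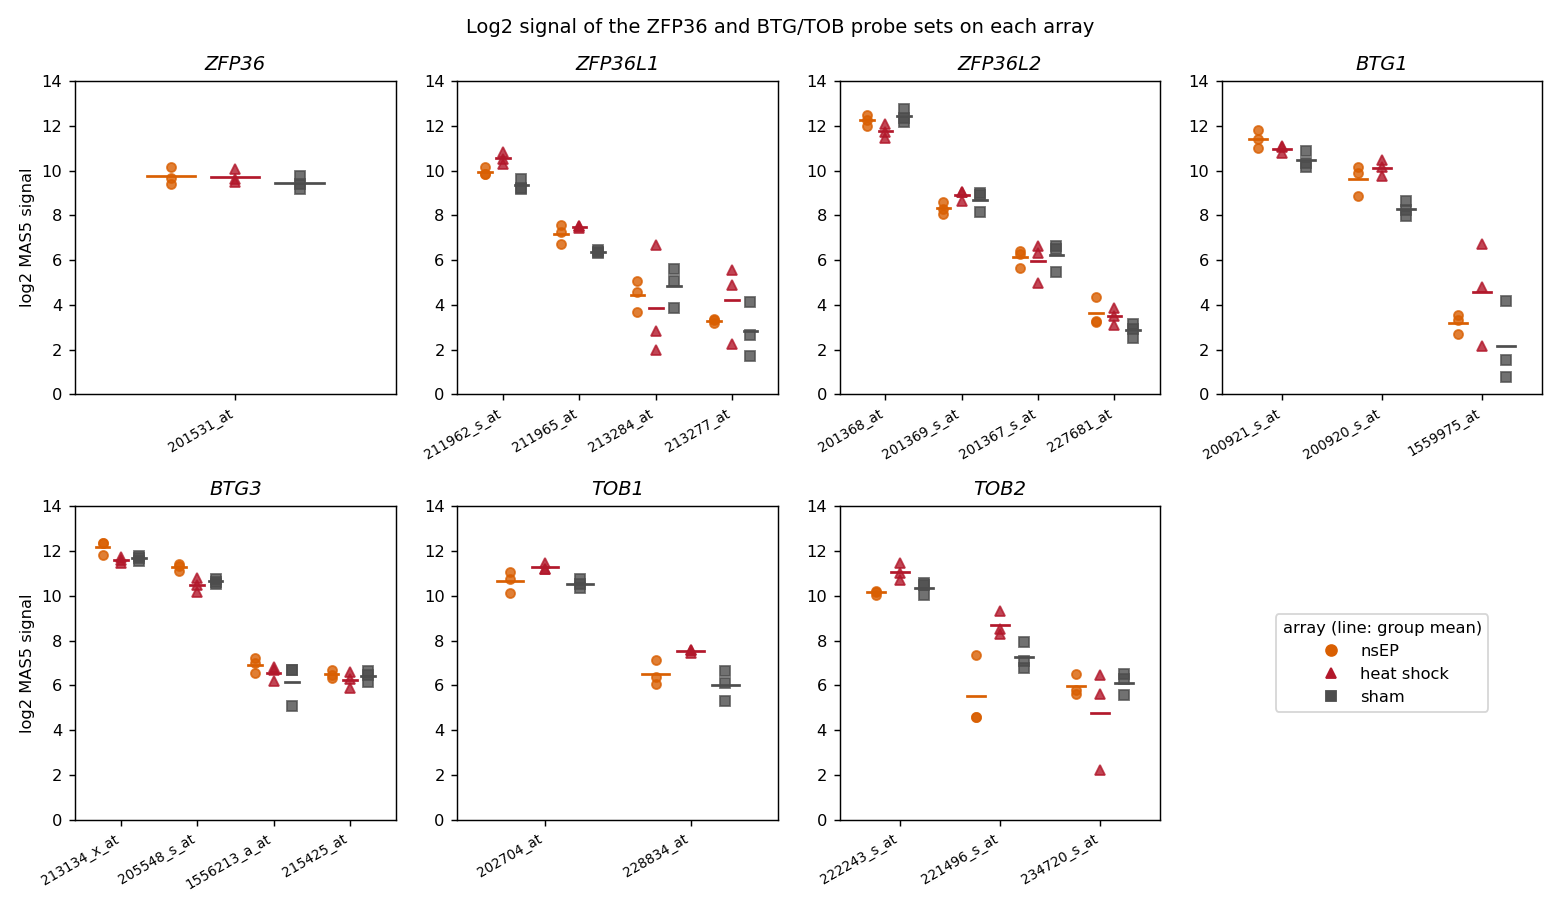
Log2 MAS5 signal of each of the 21 probe sets (x axis, by gene) on each of the 9 arrays, with nsEP (circles), heat shock (triangles) and sham (squares) side by side and a line at each group mean. The heat shock triangles of ZFP36L1 211962_s_at and BTG1 200920_s_at lie above all sham squares, and TOB2 221496_s_at has 2 of its 3 nsEP circles at 4.60.

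Heat shock was compared with sham to ask how a second, thermal stress moved these regulators. ZFP36L1 and BTG1 rose, each by 1 probe set in the brightest quartile, and none of the 21 probe sets was called lower as the values were deposited. ZFP36L2 201368_at was called lower with array medians made equal (-0.98, limma adjusted p = 0.0123), with arrays scaled to poly-A spike-ins (-1.69, 0.0338) and with array weights (-0.73, 0.0421). With the replicate number as a block this probe set was also called lower (-0.68, limma adjusted p = 0.0283). The count was 2 of 21, or 9.52%, against 4.17% of all probe sets, and 2 of the 15 at or above the median signal, or 13.3%, against 7.04% of all probe sets that bright. The arrays of the groups did not overlap for 8 of the 21 probe sets, 7 higher and 1 lower after heat shock, which is 38.1% against 26.5% of all probe sets. These 8 came from 5 genes, and probe sets of 1 gene share its RNA. The median log2 ratio was 0.53 over the 21, against 0.18 over all probe sets. In whole cultures, fewer cells with a transcript and less of it per cell cannot be told apart.

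ZFP36L1 is an AU-rich binding protein that limits the growth of developing lymphocytes in mouse. Its probe set 211962_s_at read 10.29, 10.52 and 10.81 in heat shocked samples, against 9.21, 9.64 and 9.16 in sham samples. Each heat shocked array lay above each sham array. The log2 ratio was 1.20 ± 0.19 (SE of the limma fit, n = 3 arrays each), a 2.30-fold rise with an adjusted p of 0.00341, and the call held with each of the 6 arrays left out in turn (adjusted p 0.00494 to 0.0217). It ended without the variance trend (adjusted p = 0.0577), by the methods' t-test after adjustment (0.120) and with the spike-in scaling (0.19, limma adjusted p = 0.808). The second probe set, 211965_at, read 7.43, 7.54 and 7.52 after heat shock and 6.30, 6.34 and 6.46 in sham, without overlap. Its log2 ratio of 1.13 ± 0.30 was close to that of the first but missed the threshold (limma adjusted p = 0.0586). The other pair, 213277_at and 213284_at, lay in the dimmest quartile, where heat shocked arrays ran from 2.23 to 5.54 and from 2.00 to 6.67 and no direction could be read.

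BTG1 (B cell translocation gene 1) is an antiproliferative cofactor of the CAF1 deadenylases that is often deleted or mutated in lymphoid cancers. Its probe set 200920_s_at read 9.74, 10.17 and 10.47 in heat shocked samples, against 7.96, 8.63 and 8.24 in sham samples. The groups stood more than 1 unit apart. The log2 ratio was 1.85 ± 0.31, a 3.61-fold rise (limma adjusted p = 0.00515, 0.0109 to 0.0326 with 1 array left out). This call ended in the same settings, without the variance trend (adjusted p = 0.0697), by the methods' t-test after adjustment (0.10004) and with the spike-in scaling (0.84, limma adjusted p = 0.316). The brighter probe set of the same gene, 200921_s_at, read 10.78, 11.10 and 11.06 after heat shock and 10.17, 10.88 and 10.32 in sham, with 1 sham array inside the range of the heat shocked arrays. Its log2 ratio was 0.53 ± 0.22 (limma adjusted p = 0.233).

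The 2 BTG1 probe sets thus gave unlike sizes for 1 gene. Taken within each array, 200920_s_at minus 200921_s_at was -1.05, -0.94 and -0.58 in heat shocked samples, against -2.21, -2.25 and -2.08 in sham samples. The heat shocked arrays did not overlap the sham arrays, and the mean difference was 1.32 log2 units (exact permutation test, two-sided, p = 0.1, the smallest that 3 against 3 arrays allow, and 0.4 after Benjamini-Hochberg adjustment over 8 such pairs). In nsEP samples the same difference was -1.50, -1.66 and -2.17, between the other groups on 2 arrays and within the sham range on nsEP replicate 3. A level set within an array is not touched by a scaling that shifts all log2 values of an array alike, which quantile normalization does not do. The ratio shows that the probe sets changed unequally and not which of them followed the gene. A TOB2 pair, 221496_s_at minus 222243_s_at, also did not overlap between heat shocked and sham samples. Its mean difference was 0.76 log2 units (exact permutation test, two-sided, p = 0.1, and 0.4 after the same adjustment). The third BTG1 probe set, 1559975_at, lay in the dimmest quartile with a log2 ratio of 2.41 ± 1.14 (limma adjusted p = 0.292).

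TOB1 and TOB2 lay above sham after heat shock without passing the test. TOB1, a regulator of T cell quiescence that joins CCR4-NOT to poly(A) binding protein, read 11.21, 11.48 and 11.20 at 202704_at in heat shocked samples, against 10.36, 10.73 and 10.54 in sham samples. Its second probe set, 228834_at, read 7.56, 7.46 and 7.57, against 5.30, 6.10 and 6.62. Neither overlapped sham, and the log2 ratios were 0.75 ± 0.22 (adjusted p = 0.0790) and 1.52 ± 0.41 (adjusted p = 0.0608) in the limma fit. TOB2, its close paralog, read 11.01, 10.72 and 11.49 at 222243_s_at after heat shock, against 10.49, 10.57 and 10.04 in sham, a log2 ratio of 0.70 ± 0.20 (limma adjusted p = 0.0805). The TOB2 probe set 221496_s_at read 8.53, 8.31 and 9.31 after heat shock, against 7.91, 7.09 and 6.76 in sham, a log2 ratio of 1.46 ± 0.63 (limma adjusted p = 0.242). All 4 had the heat shocked arrays above the sham arrays. The third TOB2 probe set, 234720_s_at, lay below the median signal and had a log2 ratio of -1.36 ± 0.88, with 1 heat shocked array at 2.20 and the others at 5.61 and 6.46.

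ZFP36L2, which acts beside ZFP36L1 in mouse thymocytes, had the 1 probe set of the families whose heat shocked arrays all lay below the sham arrays. At 201368_at it read 11.46, 12.06 and 11.73 in heat shocked samples, against 12.34, 12.77 and 12.18 in sham samples. The groups did not overlap, and the log2 ratio was -0.68 ± 0.20 (limma adjusted p = 0.0869). Its next probe set, 201369_s_at, leaned the other way, with 9.06, 8.64 and 9.06 after heat shock, 8.997, 8.92 and 8.13 in sham and a log2 ratio of 0.24 ± 0.26 (limma adjusted p = 0.675). The remaining ZFP36L2 probe sets, 201367_s_at and 227681_at, lay below the median signal and their groups overlapped. ZFP36 itself (tristetraprolin, the founding member, which targets TNF mRNA) read 9.47, 9.62 and 10.08 at its 1 probe set after heat shock, against 9.17, 9.77 and 9.38 in sham. The ranges overlapped, and the log2 ratio was 0.29 with a 95% interval of -0.23 to 0.80. BTG3, an antiproliferative member of the BTG branch, gave log2 ratios of -0.16 and -0.09 at its bright probe sets 205548_s_at and 213134_x_at, and all of its 4 probe sets overlapped sham.

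**Figure D2:**
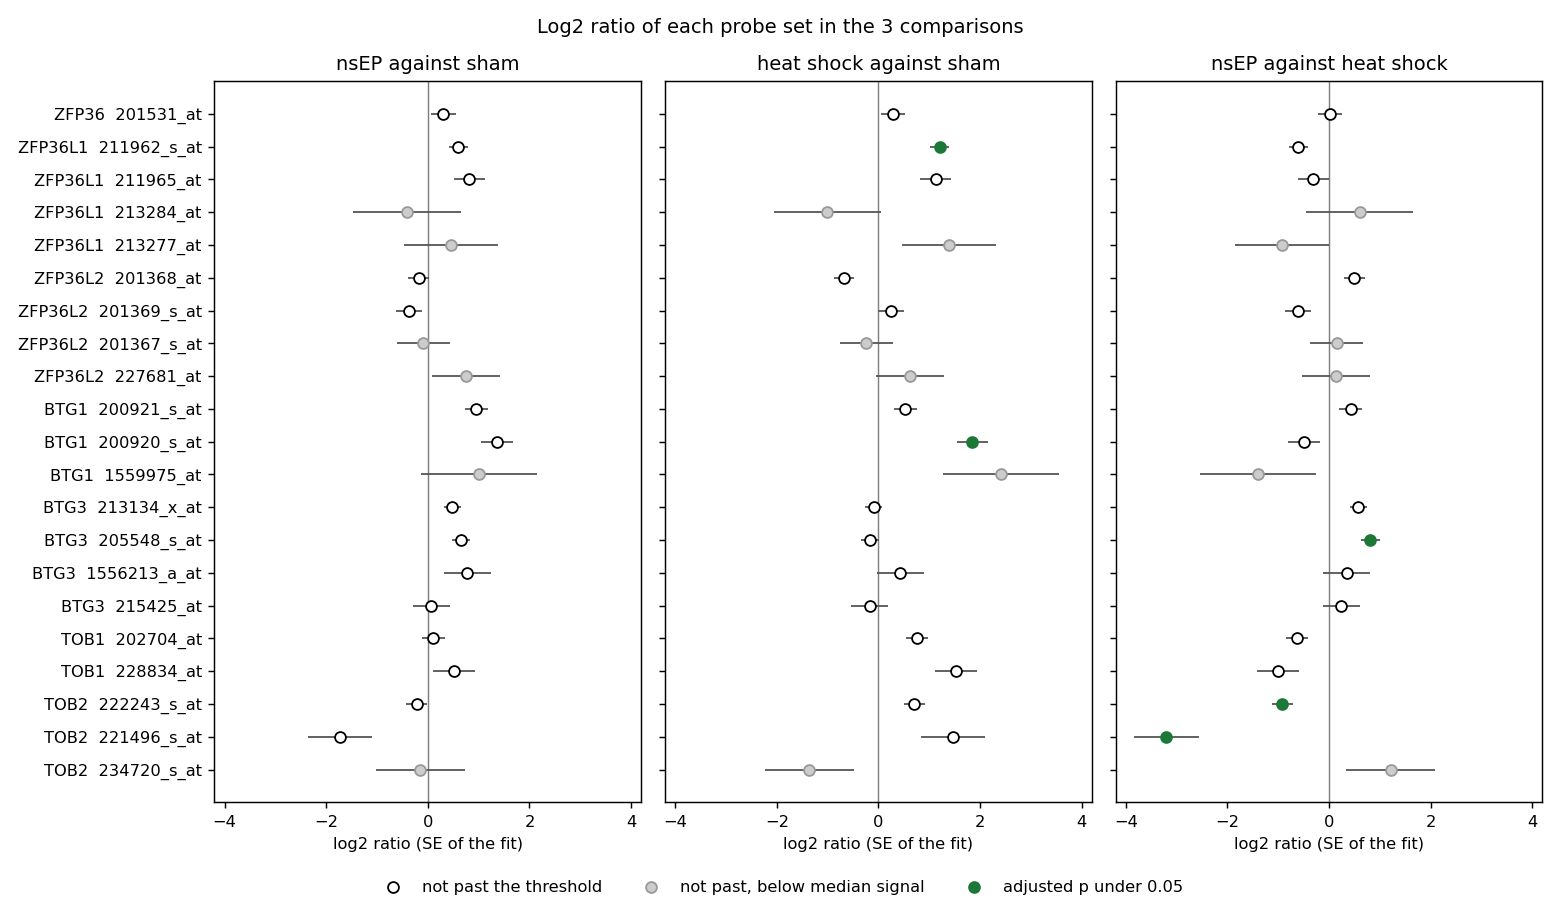
Log2 ratio of each of the 21 probe sets (rows) in the comparisons of nsEP with sham, of heat shock with sham and of nsEP with heat shock, with bars of 1 SE of the limma fit, filled green where the adjusted p was under 0.05 and grey where the probe set lay below the median signal. No point is green for nsEP against sham, 2 are green for heat shock against sham and 3 for nsEP against heat shock.

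nsEP against sham was the main comparison of the study. No member passed the test: 0 of 21 probe sets were called in limma, against 0.0586% of all probe sets, and 0 of the 15 at or above the median signal, against 0.11% of all that bright. An unadjusted p under 0.05 was reached by 7 of the 21 in limma. The share of all probe sets at that unadjusted p is not given here, so this count is a value only. The methods' t-test gave 0 members both at the thresholds of the study and after Benjamini-Hochberg adjustment. The arrays did not overlap for 7 of 21 probe sets, or 33.3% against 11.6% of all probe sets, and all 7 had nsEP above sham. They came from 4 genes, ZFP36L1 and BTG1 and BTG3 with a pair each and ZFP36L2 with its dimmest probe set. The median log2 ratio of the 21 was 0.46, against -0.01 over all probe sets.

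BTG1 had the smallest adjusted p of the members. At 200920_s_at it read 9.90, 10.15 and 8.85 in nsEP samples, against 7.96, 8.63 and 8.24 in sham samples, and at 200921_s_at it read 11.40, 11.80 and 11.02, against 10.17, 10.88 and 10.32. The nsEP arrays lay above the sham arrays at both, with nsEP replicate 3 the lowest of its group each time. The log2 ratios were 1.36 ± 0.31 (adjusted p = 0.241) and 0.95 ± 0.22 (adjusted p = 0.252) in the limma fit. Without nsEP replicate 3 the first was 1.75 and passed (limma adjusted p = 0.0409), the only member that did so.

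ZFP36L1 and BTG3 came next. ZFP36L1 read 9.85, 10.14 and 9.82 at 211962_s_at in nsEP samples, which lay above the sham values given before, a log2 ratio of 0.60 ± 0.19 (limma adjusted p = 0.504). At 211965_at its nsEP values were 6.73, 7.27 and 7.56, also above sham, with a log2 ratio of 0.82 ± 0.30 (limma adjusted p = 0.595). BTG3 read 11.33, 11.44 and 11.10 at 205548_s_at in nsEP samples, against 10.51, 10.77 and 10.64 in sham samples. At 213134_x_at, a probe set whose suffix marks probes that can also bind other transcripts, it read 12.38, 12.34 and 11.81, against 11.58, 11.71 and 11.79. The last of these nsEP arrays, replicate 3, lay just above the highest sham array. The log2 ratios were 0.65 ± 0.18 (adjusted p = 0.381) and 0.48 ± 0.17 (adjusted p = 0.567) in the limma fit.

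The members whose bright probe sets overlapped sham after nsEP were ZFP36, ZFP36L2, TOB1 and TOB2. ZFP36 read 9.39, 10.16 and 9.69 in nsEP samples, a log2 ratio of 0.31 with a 95% interval of -0.21 to 0.82. ZFP36L2 at 201368_at read 12.28, 12.48 and 11.98, a log2 ratio of -0.18 with an interval of -0.62 to 0.26. TOB1 at 202704_at read 10.76, 11.08 and 10.13, a log2 ratio of 0.11 with an interval of -0.36 to 0.58. Each of these intervals holds 0, and they are not limits of detection. With 3 arrays a group larger log2 ratios were also not called, such as 1.36 at BTG1 200920_s_at (limma adjusted p = 0.241). TOB2 at 222243_s_at read 10.05, 10.17 and 10.22, a log2 ratio of -0.22 with an interval of -0.66 to 0.23. TOB2 at 221496_s_at read 4.60, 4.60 and 7.35, against 7.91, 7.09 and 6.76 in sham, so that nsEP replicates 1 and 2 lay far below sham and replicate 3 lay among the sham arrays. Its log2 ratio was -1.74 ± 0.63 (limma adjusted p = 0.587), and -2.65 without nsEP replicate 3 (limma adjusted p = 0.0589). The remaining probe sets of the families overlapped sham or were dim, with log2 ratios from -0.41 (ZFP36L1 213284_at) to 1.01 (BTG1 1559975_at).

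nsEP was then set against heat shock directly, which tests the difference between the stresses without setting one list of calls against another. The comparison shares its heat shocked samples with the one above. BTG3 was higher after nsEP than after heat shock and TOB2 was lower. Of the 21 probe sets, 1 was called higher and 2 were called lower, or 14.3% against 4.96% of all probe sets, and 3 of the 15 at or above the median signal, or 20% against 8.29% of all that bright. The arrays did not overlap for 8 of 21, 2 higher and 6 lower, or 38.1% against 23.1% of all probe sets. The median log2 ratio was 0.02, against -0.18 over all probe sets.

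For BTG3, 205548_s_at read 11.33, 11.44 and 11.10 in nsEP samples, against 10.48, 10.80 and 10.16 in heat shocked samples. The groups were clear of each other, and the log2 ratio was 0.82 ± 0.18 (limma adjusted p = 0.0199), a 1.76-fold difference. 213134_x_at read 11.61, 11.71 and 11.47 in heat shocked samples, below all nsEP arrays, with a log2 ratio of 0.58 ± 0.17 (limma adjusted p = 0.0743). The BTG3 call at 205548_s_at ended without nsEP replicate 1 (limma adjusted p = 0.0557), nsEP replicate 2 (0.0889), heat shock replicate 1 (0.0712) or heat shock replicate 3 (0.0911), with log2 ratios of 0.66 to 0.98 over the 6 arrays left out in turn. The call at 213134_x_at was made without nsEP replicate 3 (0.76, limma adjusted p = 0.00764).

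For TOB2, 221496_s_at read 4.60, 4.60 and 7.35 in nsEP samples, against 8.53, 8.31 and 9.31 in heat shocked samples. nsEP replicate 3 was nearly 1 unit short of the lowest heat shocked array, and the other nsEP arrays were over 3 units below it. The log2 ratio was -3.20 ± 0.63 (limma adjusted p = 0.0115), and -2.42 with 32 signal units added to each value (limma adjusted p = 0.0108). The value of 4.60 on nsEP replicates 1 and 2 lies just above the dimmest quartile of probe sets, where precision was lowest. Without nsEP replicate 3 it was -4.11 (limma adjusted p = 0.000302), and the call ended without nsEP replicate 2 (0.0553) or heat shock replicate 3 (0.0649). 222243_s_at, the brighter TOB2 probe set, read 10.05, 10.17 and 10.22 in nsEP samples, against 11.01, 10.72 and 11.49 in heat shocked samples. The groups did not overlap, and the log2 ratio was -0.92 ± 0.20 (limma adjusted p = 0.0220). That call ended without nsEP replicate 1 or 2 or heat shock replicate 1 or 3 (limma adjusted p 0.0659 to 0.0947). With the arrays scaled to their poly-A spike-ins the log2 ratio at 222243_s_at was 0.0117 (limma adjusted p = 0.990), and with array medians made equal it was -0.60 and not called.

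The other members were not called between the stresses. ZFP36L1 at 211962_s_at gave a log2 ratio of -0.60 ± 0.19 in nsEP against heat shock (limma adjusted p = 0.0977) and the arrays did not overlap. TOB1 gave -0.64 ± 0.22 at 202704_at and -1.01 ± 0.41 at 228834_at (limma adjusted p = 0.124 and 0.201), again without overlap. BTG1 gave 0.42 ± 0.22 at 200921_s_at and -0.49 ± 0.31 at 200920_s_at, so that its bright probe sets pointed opposite ways and overlapped between the stresses. ZFP36 gave 0.02 with an interval of -0.50 to 0.54. ZFP36L2 gave 0.50 ± 0.20 at 201368_at and -0.61 ± 0.26 at 201369_s_at (limma adjusted p = 0.202 and 0.218), which also pointed opposite ways. The probe sets whose arrays overlapped between the stresses ran from -1.40 (BTG1 1559975_at) to 1.21 (TOB2 234720_s_at), both below the median signal.

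**Figure D3:**
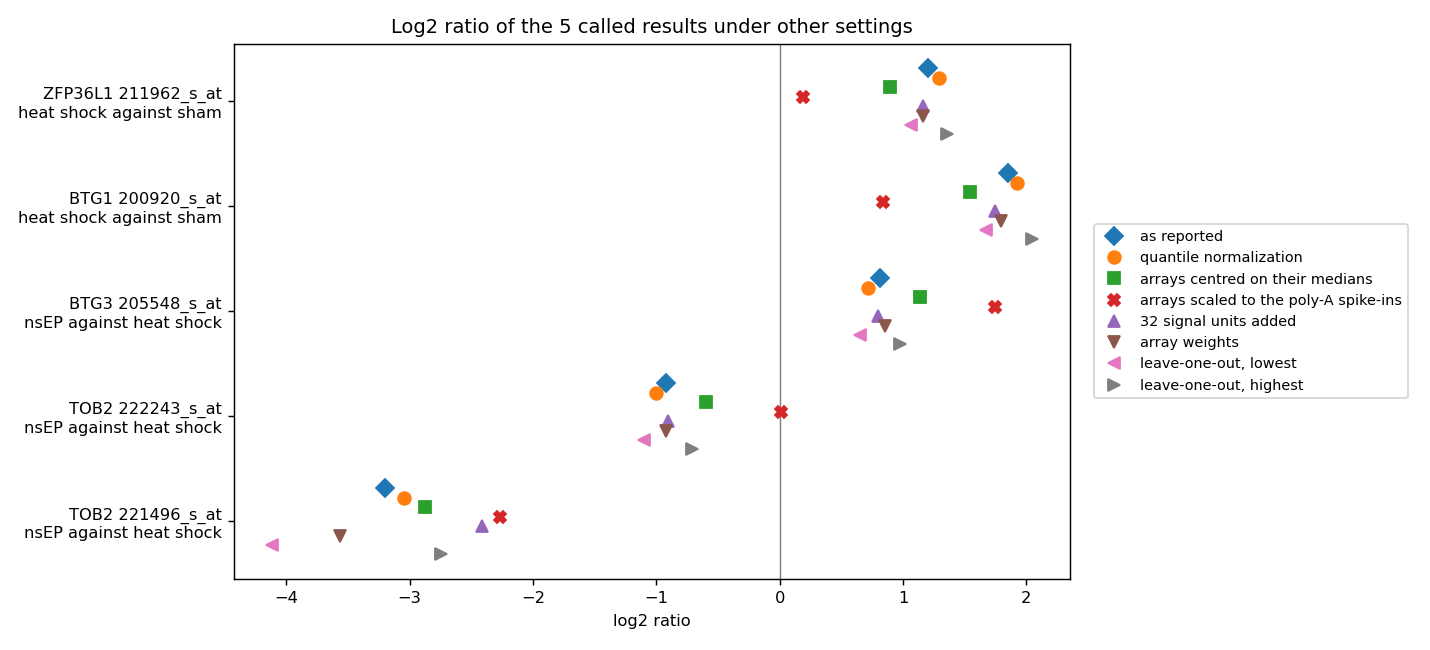
Log2 ratio (x axis) of the 5 called results under the reported fit, 3 other scalings of the arrays, 32 signal units added, array weights, and the lowest and highest value with 1 array left out. The values keep their side of 0 except TOB2 222243_s_at, which sits at 0.01 when arrays are scaled to the poly-A spike-ins.

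The heat shock results depended on how arrays were made comparable. MAS5 sets each array to 1 trimmed mean, and the poly-A spike-ins, RNAs of bacterial genes added to each sample before labelling, gave a mean log2 signal of 10.05 to 11.36 in nsEP, 11.23 to 11.82 in heat shocked and 9.92 to 10.90 in sham samples. Whether equal amounts were added is not given in the sources used here. Scaling to them lowered the median log2 ratio of all probe sets in heat shock against sham by 1.01. ZFP36L1 211962_s_at and BTG1 200920_s_at were then not called, with the values given above. Both stayed called with quantile normalization (1.296, adjusted p = 0.00203, and 1.93, 0.00441) and with array medians made equal (0.90, 0.0153, and 1.54, 0.0121) in limma. The number of heat shock calls was 6, all higher, when nsEP replicate 3 was left out of the shared estimate of spread, a setting chosen after seeing the data, which added both TOB1 probe sets, TOB2 221496_s_at and ZFP36L1 211965_at.

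The genes whose values followed ZFP36L1 211962_s_at most closely over the 9 arrays were TOR4A and STH. After each probe set's sham mean was subtracted, the root mean square distance was 0.077 for TOR4A 233589_x_at and 0.20 for STH 1555752_at, the smallest among 12232 genes at or above the median signal. TOR4A had log2 ratios of 0.60 ± 0.26 in nsEP and 1.21 ± 0.26 in heat shock against sham (limma adjusted p = 0.693 and 0.0225). STH had 0.50 ± 0.32 and 1.17 ± 0.32 (limma adjusted p = 0.831 and 0.0634). Likeness over 9 arrays of 3 groups is a description of these values.

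The machinery that these regulators recruit was looked at through gene lists, in which a gene stood for its brightest probe set. Over all 19775 genes, 0.0607% were called after nsEP and 5.71% after heat shock when set against sham, and 5.99% between the stresses, and the median log2 ratios were -0.02, 0.14 and -0.14. Of 12 measured CCR4-NOT subunits, which form the deadenylase itself, 0 were called in limma in each of the 3 comparisons, with medians of 0.06 in nsEP and -0.21 in heat shock against sham. An unadjusted p under 0.05 was reached by 0 of the 12 after nsEP, by 4 after heat shock and by 5 between the stresses. The share of all genes at that unadjusted p is not given here for any list, so such counts are values only. The smallest adjusted p in heat shock belonged to CNOT6, a catalytic subunit, at -0.57 ± 0.15 (limma adjusted p = 0.0571), and CNOT3, another subunit, was at 0.98 ± 0.28 (limma adjusted p = 0.0778). CNOT7 and CNOT8, the CAF1 partners of BTG and TOB proteins, were at 0.07 ± 0.14 and -0.38 ± 0.26. The other deadenylases with the poly(A) binding proteins (10 of 11 genes measured) also gave 0 calls in limma, with medians of 0.03 and -0.09 and with 0, 2 and 2 genes at an unadjusted p under 0.05.

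Of 19 decapping and 5′ decay genes, which act after deadenylation, 2 fell and 0 rose in heat shock against sham, or 10.5% against the 5.71% of all genes. DCP2, the decapping enzyme, fell by 0.83 and LSM1, a subunit of the ring that binds shortened tails, fell by 0.78 on the log2 scale (limma adjusted p = 0.0241 and 0.0299). Both were higher in nsEP than in heat shock, by 0.87 and 0.70. Of 17 exosome and SKI genes 1 fell, or 5.88%, the exosome subunit EXOSC6, at 9.91 ± 0.20 in heat shocked and 11.24 ± 0.11 in sham samples (SD, n = 3 each), a log2 ratio of -1.34 ± 0.17 (limma adjusted p = 0.000777). In nsEP samples EXOSC6 was at 11.26 ± 0.26, and the log2 ratio of nsEP against heat shock was 1.36. In nsEP against sham, 0 genes of both lists were called in limma and 0 had an unadjusted p under 0.05.

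Among 22 measured regulators of other kinds, 0 were called in limma in nsEP against sham and 0 had an unadjusted p under 0.05. After heat shock 1 rose and 4 fell, or 22.7% against 5.71% of all genes. CPEB2, which binds mRNAs at cytoplasmic polyadenylation elements, rose by 1.37 ± 0.20 (limma adjusted p = 0.00205). TNRC6C and TNRC6B, partners of Argonaute in microRNA silencing, fell by 1.18 and 0.77, RC3H2, a relative of Roquin, fell by 0.96, and PUM2, a Pumilio protein, fell by 0.70 on the log2 scale (limma adjusted p 0.0147 to 0.0487). In nsEP against heat shock CPEB2 was lower by 1.64 and CPEB4 by 1.21, while PUM2 was higher by 0.80. The p38, MK2 and PP2A arm sets the phosphorylation of ZFP36 proteins, and 13 of its 15 listed genes were measured. No probe set was listed under MAPK14 or MAP2K3 alone in the annotation used, so nothing can be said of them. Of the 13, 0 were called in limma and 0 had an unadjusted p under 0.05 in the 3 comparisons. Their medians were 0.10 in nsEP and 0.11 in heat shock against sham.

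mRNAs known to be bound by ZFP36 proteins through AU-rich sequences were the list with the most calls that were higher than sham. Of 26 measured, 1 rose after nsEP, or 3.85% against 0.0607% of all genes. After heat shock 4 rose, or 15.4% against 5.71% of all genes. In either comparison 0 fell, and the medians were 0.37 and 0.19. IL2, IL3, PLK2, LIF, IL10 and PTGS2 lay in the dimmest quartile, and further targets of the list lay below the median signal. At such levels a fall can hardly be called. Their imprecise ratios, such as 1.28 ± 0.66 for IL2 and 1.40 ± 1.09 for IL10 after nsEP, enter the medians. FOS, an immediate early transcription factor, rose by 7.27 after nsEP and by 9.20 after heat shock against a sham mean in the range of dim probe sets (3.07 ± 0.67, SD, n = 3). DUSP1, a MAPK phosphatase, rose by 3.38, VEGFA, an angiogenic growth factor, by 2.65 and IER3, a stress response gene, by 2.48 after heat shock. After nsEP these 3 were at 1.25 ± 0.25, 1.03 ± 0.25 and 0.60 ± 0.26 and were not called (limma adjusted p = 0.170, 0.275 and 0.670). Each was read here by its brightest probe set only, and the paper lists a larger rise of VEGFA after nsEP in Jurkat cells. At these probe sets all 4 risen genes were lower in nsEP than in heat shock, with log2 ratios of -2.13 (DUSP1) to -1.62 (VEGFA), and 0 of the 26 were called lower there when arrays were scaled to the spike-ins. TNF, the target for which ZFP36 is best known, was at 0.64 ± 0.34 after nsEP and 0.10 ± 0.34 after heat shock, and MYC was at 0.05 ± 0.19 and -0.63 ± 0.19 (limma adjusted p = 0.771, 0.909, 0.986 and 0.0989 in the order given).

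**Figure D4:**
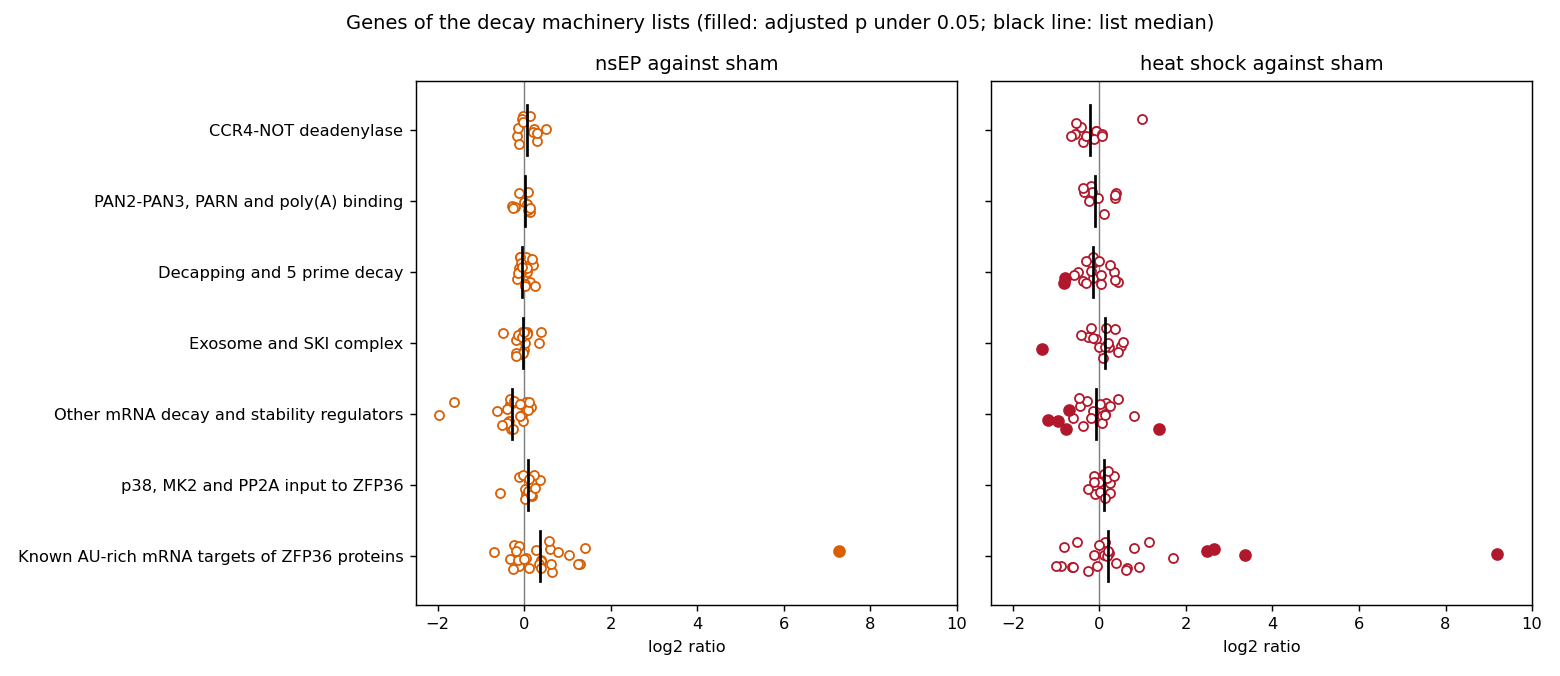
Log2 ratio of each gene of 7 lists (rows, 1 point a gene by its brightest probe set) in nsEP against sham and heat shock against sham, filled where the adjusted p was under 0.05, with a black line at the list median. FOS is the only filled point after nsEP, and after heat shock the filled points number 2 in decapping, 1 in the exosome, 5 among other regulators and 4 among the AU-rich targets.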

How the data were processed

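Labelled RNA of the 9 samples was hybridised to Affymetrix human arrays with 54675 probe sets. The deposited values are log2 values that the authors made from MAS5 signals, the name in the submitters' processing notes. MAS5 combines the matched and mismatched probes of a probe set and scales each array to 1 trimmed mean, which was 500.1 on all 9 arrays. Scale and direction were clear, and detection calls were not used here. Controls (62 probe sets) were set aside. Of the remaining 54613 probe sets 41091 had 1 gene symbol in the platform annotation, 1801 had several and named no gene, and 11721 were not listed with one.

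All 9 arrays entered 1 fit in limma 3.58.1 (R 4.3.3) with 1 mean per group, a variance trend, two-sided tests and Benjamini-Hochberg adjustment over 54613 probe sets. The labels call the arrays biological replicates without saying what separated the cultures, so p-values measure the spread between these samples. The number of arrays limits the precision. All members were named whatever their values, and from each list, in each comparison, up to 4 called genes with the largest log2 ratio, or up to 2 with the smallest p where none was called. CNOT7, CNOT8, TNF, MYC and the AU-rich targets of the dimmest quartile were named after their values were seen. The members, the 7 lists and the 4 marker lists were chosen with earlier results of these data known. Alternatives were other scalings, filters, variance models, sample sets and the methods' t-test (a p up to 0.05, taken as unadjusted, and a log2 ratio of at least 2 either way). Replicate numbers were not used as pairs in the reported fit. Promoter letters came from RefSeq (GRCh38.p14), not from the files.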

Additional observations from a re-analysis of the deposited data

How the results depend on the processing

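Calls of members depended on the variance model, the scaling and single arrays. In nsEP against sham the count was 0 under each other setting that left out no single array, and 0 to 1 with 1 array left out, where BTG1 200920_s_at passed without nsEP replicate 3. In heat shock against sham the count was 2 as reported. It was 1 with the poly-A spike-ins (ZFP36L2 201368_at, lower), 3 with quantile normalization (TOB1 202704_at joined) and 3 with array medians made equal (2 higher, 1 lower). It was 5 with dim probe sets left out, 0 without the variance trend, 4 when the fit held 6 arrays and 6 with array weights (5 higher, 1 lower). The methods' t-test gave 1 when adjusted and 0 at the thresholds of the study. Calls over all probe sets were 2276 as reported and, in the order of these settings, 3257, 2073, 4571, 2717 (of 27307), 837, 2784, 3317, 377 and 1161. With 1 array left out, those of the nsEP group included, the member count was 2 to 6, and 6 was reached without nsEP replicate 3. In nsEP against heat shock the count was 3 as reported, 0 without the variance trend, 0 with the t-test after adjustment, 1 with the t-test at the thresholds of the study (TOB2 221496_s_at) and 0 to 4 with 1 array left out, 0 being reached without nsEP replicate 2 or without heat shock replicate 3. Calls over all probe sets in this comparison were 2707 as reported, 1100 without the variance trend, 124 with the t-test after adjustment and 1257 at the thresholds of the study. Without the variance trend the adjusted p in heat shock against sham was 0.0577 for ZFP36L1 211962_s_at and 0.0697 for BTG1 200920_s_at. TOB2 222243_s_at in nsEP against heat shock changed sign with the spike-ins, to 0.0117. The cause of these differences was not tested.

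With the replicate number as a block, members called were 0 in nsEP against sham, 4 in heat shock against sham (TOB1 202704_at and ZFP36L2 201368_at joined the reported calls) and 3 in nsEP against heat shock. Deviations of samples with the same number correlated at -0.160 to 0.215 over 9 pairs, and in 3 of the 9 pairs the sample correlated best with its own number. These 3 were all of replicate 2 (0.215 for nsEP with heat shock, 0.171 for nsEP with sham, 0.132 for heat shock with sham). Replicates 1 and 3 ran from -0.160 to 0.0746. The reported fit did not take the numbers as pairs, and what replicate 2 samples shared was not tested. With arrays centred on their medians, list calls in heat shock against sham grew to 3 lower in CCR4-NOT and 6 lower in decapping. Calls over all probe sets, in either direction, also grew in this setting, from 2276 to 4571. The median log2 ratio of all probe sets moved from 0.18 to -0.13. The share of all genes called lower in this setting is not given here, so these list counts are values only.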
